A study of Homo sapiens with 6 samples.

Results

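The replication-dependent histone genes are the members of the H1-1 to H1-6, H2AC, H2BC, H3C and H4C series, and they were chosen by gene symbol alone, with pseudogenes left out. The GENCODE annotation holds 70 such genes, and 68 of them were matched by identifier to the 67140 genes of the count list. H2AC18 and H2AC19 were not matched. The data are RNA-Seq counts from U2OS, a cell line from a human osteosarcoma, labelled with wild-type genotype, in 3 groups of 2 libraries each. One group was left untreated, one received adriamycin at 1.5 μg/ml and one received etoposide (spelled Etopside in the labels) at 100 μM, both for 4 h. Both drugs act on the type II topoisomerases, which cut and rejoin DNA. The members were analysed in the 2 etoposide libraries only, with 21450766 and 14244235 counts. In the control and adriamycin libraries the members were not analysed here, and no level below is compared with untreated cells.

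Histones are the proteins around which DNA is wound. H2A, H2B, H3 and H4 form the core of the nucleosome, and the linker histone H1 binds where DNA enters and leaves it. The genes described here are made in bulk when DNA is copied in S phase, and most of their mRNAs end in a short hairpin, the stem-loop, instead of a poly-A tail. SLBP binds the stem-loop, and the U7 ribonucleoprotein directs the cut that follows it. Replication-independent histones such as H2AZ1 and H3-3B are encoded elsewhere and make mRNAs with poly-A tails throughout the cell cycle. These libraries were made from RNA bound to poly-T beads, which hold mRNA by its tail, so the counts are levels in selected RNA and not the cell's total histone mRNA. Fewer cells in S phase and less histone mRNA per cell cannot be told apart in such bulk libraries.

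The labels give the tissue as bone and the cell type as epithelial. Of 10 mesenchymal and bone markers, 7 had at least 10 counts in both libraries, led by COL1A1 at a mean of 393 RPKM (counts per 1000 exon bases and 1000000 library counts), SPARC at 244 and VIM at 159, while COL1A2, BGLAP and IBSP did not. Of 8 epithelial markers 5 passed, led by the keratins KRT8 at 130 and KRT18 at 72.4 RPKM, and KRT19, ESRP1 and GRHL2 did not. None of the 3 blood markers PTPRC, CD3E and HBB passed. Over all protein-coding genes 68.95% passed the same minimum, so the numbers of mesenchymal and epithelial markers that passed do not tell cell types apart. The markers that passed include RUNX2 at 0.583 and CDH1 at 0.231 RPKM. The paper's legends call its replicates technical, and a legend for Hi-C data uses that word for cells cultured separately. For these libraries separate cultures are not stated, so the spread between them may be technical.

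Most of the histone genes had few or no reads. Of the 68 matched members, 17 (25%) had at least 10 counts in both libraries, against 13715 of 19892 protein-coding genes (68.95%). No count was found in either library for 23 members (33.8%), against 11.6% of protein-coding genes, and the other 28 lay between. A count of 0 allows up to 3 counts, which is 0.140 counts per 1000000 (CPM) in replicate 1 and 0.211 CPM in replicate 2. The median member stood at 0.318 and 0.0569 RPKM, and the median protein-coding gene at 1.59 and 1.68 RPKM. RPKM was computed over all annotated exon bases of a gene. Together the members held 12622 counts in replicate 1 and 7584 in replicate 2. That is 0.0588% of all counts (95% exact binomial interval 0.0578 to 0.0599) and 0.0532% (0.0521 to 0.0545), with a mean of 0.0560% ± 0.00396 (SD, n = 2). The intervals cover counting error only and do not overlap.

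A pair of genes carried most of these reads. H1-2, a linker histone gene (chr6:26055740-26056470, minus strand, GRCh38), had 5797 and 3387 counts, or 370 and 325 RPKM (mean 347 ± 31.4 SD, n = 2). H2BC12, a gene for core histone H2B (chr6:27146361-27146855, minus strand), had 3596 and 2188 counts, or 339 and 310 RPKM (mean 324 ± 20.1 SD). Their library ranges overlapped, and each mean RPKM was above that of over 99% of protein-coding genes (99.72% and 99.68%). H1-2 and H2BC12 held 74.4% and 73.5% of all member counts. The third was H4C9, a gene for core histone H4 (chr6:27139282-27139678, plus strand), with 848 and 544 counts, or 99.6 and 96.2 RPKM. H2BC12 stood above H4C9 by 3.40 and 3.23 times. H4C9 stood above the next gene, H2AC6, by 6.25 times in both libraries, and by 1.87 times per coding length, since H2AC6 is annotated 1128 exon bases past its stem-loop.

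**Figure D1:**
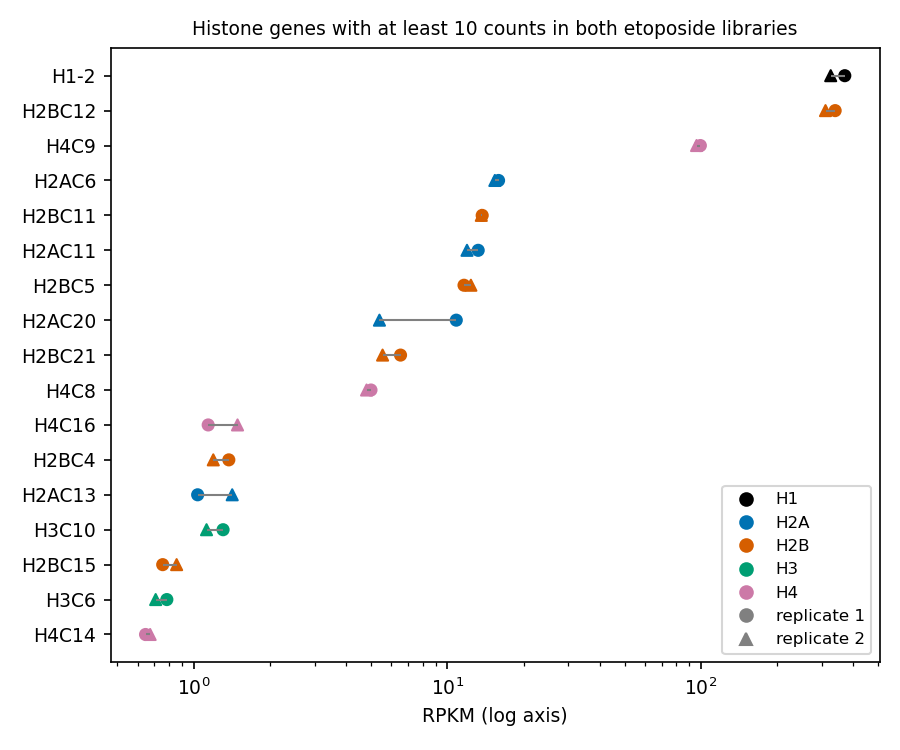
RPKM (log axis) of the 17 histone genes that reached 10 counts in each etoposide library, 1 gene per row, with circles for replicate 1, triangles for replicate 2, a grey line between them and colours for the families. H1-2 and H2BC12 lie above 310 RPKM in both libraries, H4C9 lies just under 100 RPKM, and the other 14 genes lie below 16 RPKM.

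The order of levels was only partly resolved by 2 libraries. Of the 16 pairs of neighbours in the order of mean RPKM, 7 overlapped in their ranges over both libraries. These were H1-2 with H2BC12, H2AC11 with H2BC5, H2AC20 with H2BC21, H4C16 with H2BC4, H2BC4 with H2AC13, H2AC13 with H3C10, and H2BC15 with H3C6. Ranges can overlap while the order holds within each library, as for H1-2 above H2BC12 in RPKM. The order also depended on the length used, since annotated exons run past the coding part by different amounts. Per coding length in place of exon length, H2BC12 had 440 and 403 in place of its RPKM, above H1-2 with 421 and 370. H4C9 was the third and H2AC6 the fourth on both scales. Per coding length H2BC21, H4C8 and H2BC11 came next, with close means of 35.3, 34.0 and 33.9. Their order differed between the libraries, with H2BC21 the highest of them in replicate 1 and H2BC11 in replicate 2. H2BC5 followed, while H2AC11 and H2AC20 came after these.

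The leading genes and genes that were barely read have the same kind of stem-loop in the genome, and where the sequenced mRNAs ended was not measured. The stem-loop was searched as 16 bases within 150 bases after the stop codon, with a stem of 6 base pairs that begins with GG and a loop of TTTN. It was found in 64 of the 70 members (91.4%) and in 5 of 19880 other protein-coding genes (0.0252%), at 22 to 67 bases after the stop codon. The sequences below, read from GRCh38 on the strand of the gene, show the hairpin in capitals with 5 bases on each side. They were chosen to set the 4 highest members beside H2AC20, which has a loop of its own, H3C10 and H4C8, the first H3 gene and the second H4 gene by RPKM, and H1-4, with 6 and 0 counts.
H1-2: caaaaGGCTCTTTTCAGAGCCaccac
H2BC12: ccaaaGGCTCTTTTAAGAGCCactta
H4C9: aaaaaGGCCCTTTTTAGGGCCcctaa
H2AC6: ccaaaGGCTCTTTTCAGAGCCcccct
H2AC20: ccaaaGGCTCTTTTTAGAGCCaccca
H3C10: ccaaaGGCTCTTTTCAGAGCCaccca
H4C8: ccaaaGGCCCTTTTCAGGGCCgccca
H1-4: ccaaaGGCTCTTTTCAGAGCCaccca

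The hairpin of H1-2 lies at chr6:26055744-26055759, that of H2BC12 at chr6:27146366-27146381 and that of H4C9 at chr6:27139654-27139669. The stem followed the family. All 14 H4 genes with a match had the stem GGCCCT, and all 50 matched genes of the other families had GGCTCT. The commonest hairpin, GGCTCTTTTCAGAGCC, was shared by 40 members of the H1, H2A, H2B and H3 families, and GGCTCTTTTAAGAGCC by 9. In H4 genes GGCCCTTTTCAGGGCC occurred 10 times and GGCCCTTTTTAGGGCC, the form of H4C9, 4 times. H2AC20 alone had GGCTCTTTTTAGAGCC. The printed 26 bases of H3C10 and H1-4 are the same letters, while the 2 genes had 35 and 20 counts (H3C10) and 6 and 0 counts (H1-4). H2AC11, H3C6, H2BC12L, H2BC10, H2AC15 and H4C13 had no match, and of these H2AC11 and H3C6 had at least 10 counts in both libraries.

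Members whose annotated exons run on past the stem-loop were read more often than members that end there. GENCODE annotates 380 to 4551 exon bases beyond the hairpin for 16 matched members, and 10 of these (62.5%) had at least 10 counts in both libraries, with a median of 83.5 summed counts. Of the 46 members whose exons end within 18 bases of the hairpin, 5 (10.9%) did so, with a median of 2.5 summed counts, and 18 had no count. Those 5 were H1-2, H2BC12, H4C9, H2AC20 and H2AC13. Longer exons collect more reads, and the part of exon length or of poly-A tails in this difference was not tested. The shares of counts ran the other way from the numbers of genes. The members that end at the hairpin held 83.1% and 82.1% of member counts, and the extended members 15.4% and 16.4%. Without H1-2 and H2BC12 the extended members held a mean of 61.1%.

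**Figure D2:**
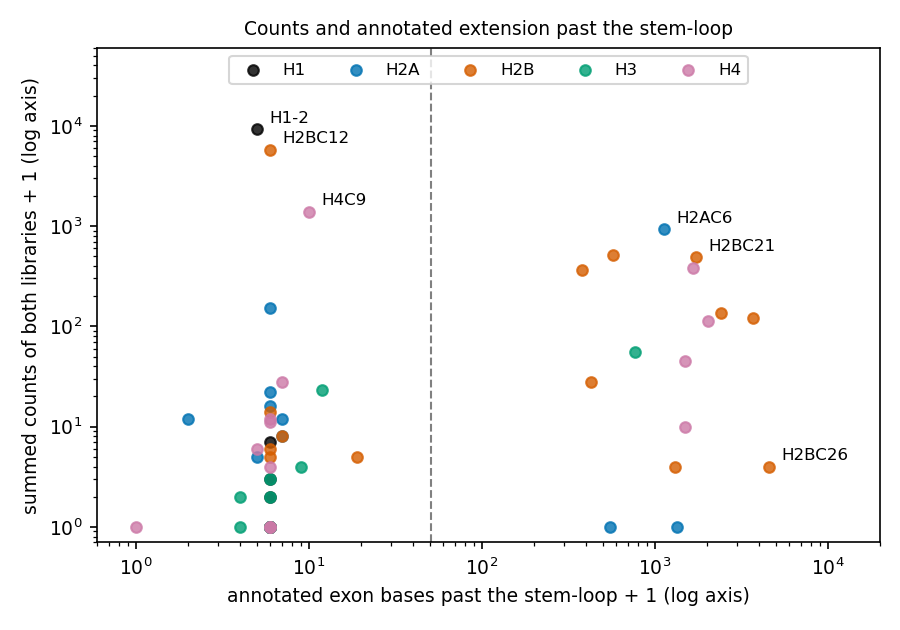
Summed counts of both etoposide libraries plus 1 (log axis) against annotated exon bases past the stem-loop plus 1 (log axis) for the 62 matched members with a stem-loop, coloured by family, with a dashed line at 50 bases. H1-2, H2BC12 and H4C9 lie at the top left, with exons that end at the hairpin, and 10 of the 16 members on the right have at least 10 counts in both libraries.

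The split depended on the annotation. RefSeq gives H2BC12 a span of 8566 bases (chr6:27138293-27146858) that runs 8073 bases past its stem-loop and contains H4C9 on the opposite strand. With RefSeq spans in place of GENCODE exons, 6 matched members ran past the hairpin and held 33.4% and 33.9% of member counts. The strand setting of the counting is not given in the sources used here, and without strand the reads of genes on opposite strands cannot be told apart. The poly-A signal AATAAA was found in the last 50 bases of the most downstream annotated end of 13 of the 70 members (18.6%), against 59.3% of other protein-coding genes. Of the 13 members with the signal, 8 had at least 10 counts in both libraries, and of the 55 matched members without it 9 did.

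Among H1-1 to H1-6, nearly all counts in this poly-T selected RNA fell in 1 gene. H1-2 held 99.8% and 100% of the counts of H1-1 to H1-6. H1-4 had 6 and 0 counts, H1-5 had 2 and 0, H1-3 had 1 and 0, and H1-1 and H1-6, the last of them known from testis, had none in either library. All 6 genes have a stem-loop, and GENCODE extends none of them past it. The 6 genes made up 46.0% and 44.7% of all member counts. H1-10, a linker histone gene outside these series, stood at 180 and 165 RPKM.

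The H2B family was the second by counts, at 36.8% and 37.4% of member counts (mean 37.1% ± 0.414 SD, n = 2), and H2BC12 held 77.4% and 77.2% of it. By summed RPKM H2B was above H1, at 376.5 and 345.7 against 370.2 and 325.3. Per coding length the sums were 563 and 517 for H2B against 422 and 370 for H1. H2BC11 (chr6:27125897-27132795, minus strand) followed with 308 and 203 counts, or 13.7 and 13.6 RPKM, so that H2BC12 stood 24.7 and 22.8 times higher, and 12.9 and 11.9 times higher per coding length. H2BC5 had 215 and 152 counts, or 11.6 and 12.4 RPKM, and H2BC21 on chromosome 1 had 312 and 176 counts, or 6.54 and 5.56 RPKM. Per exon length H2BC21 was lower than H2BC11 and H2BC5 in both libraries. Per coding length, the ratio of H2BC11 to H2BC21 was 0.891 and 1.04, on either side of equal. H2BC4 and H2BC15 were the other H2B genes with at least 10 counts in both libraries, so that 6 of 19 passed. H2BC12L on chromosome 21, outside the clusters, had 4 and 7 counts.

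Nearly all H4 genes encode the same protein, and their counts were unequal. H4C9 held 70.2% and 69.3% of H4 counts, and the family made up 9.57% and 10.4% of member counts. H4C8 had 232 and 148 counts, or 5.00 and 4.804 RPKM, so that H4C9 stood 19.92 and 20.02 times higher. Per coding length it stood 3.66 and 3.68 times higher, since 1655 of the exon bases of H4C8 lie past its stem-loop. H4C16, alone on chromosome 12 (chr12:14767999-14771131, minus strand), had 60 and 52 counts, or 1.14 and 1.49 RPKM. H4C11 had 19 and 8 counts, under the minimum in replicate 2. H4C14 was the remaining H4 gene among the 4 of 15 that passed.

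The H2A genes held 6.82% and 6.87% of member counts, and 4 of 15 passed. H2AC6 (chr6:26124145-26139116, plus strand) had 570 and 366 counts, or 15.9 and 15.4 RPKM, and made up 66.2% and 70.3% of the family. H2AC11 had 140 and 84 counts, or 13.24 and 11.96 RPKM. H2AC20 on chromosome 1 had 115 and 38 counts, or 10.9 and 5.40 RPKM, and H2AC13 had 11 and 10. The ranges of H2AC6 and H2AC11 did not overlap, and H2AC20 stood 2.01 times higher in replicate 1 in CPM.

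The H3 genes were the lowest family, with 0.800% and 0.725% of member counts. H3C10 had 35 and 20 counts, or 1.31 and 1.12 RPKM, and H3C6 had 45 and 27 counts, or 0.783 and 0.708 RPKM. Per coding length their order was reversed, with 3.97 and 3.42 for H3C10 against 5.10 and 4.61 for H3C6. H3C1 had 17 and 5 counts and H3C8 had 0 and 2. Of 13 genes 2 passed, and 6 had no count in either library. The summed RPKM was 376 and 346 for H2B, 111 and 107 for H4, 43.4 and 37.4 for H2A and 4.02 and 2.89 for H3. That order of the core families was the same in both libraries, and on coding length too. These sums leave out the replication-independent genes. One nucleosome holds equal numbers of the 4 core histone proteins, which counts of selected RNA do not measure.

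**Figure D3:**
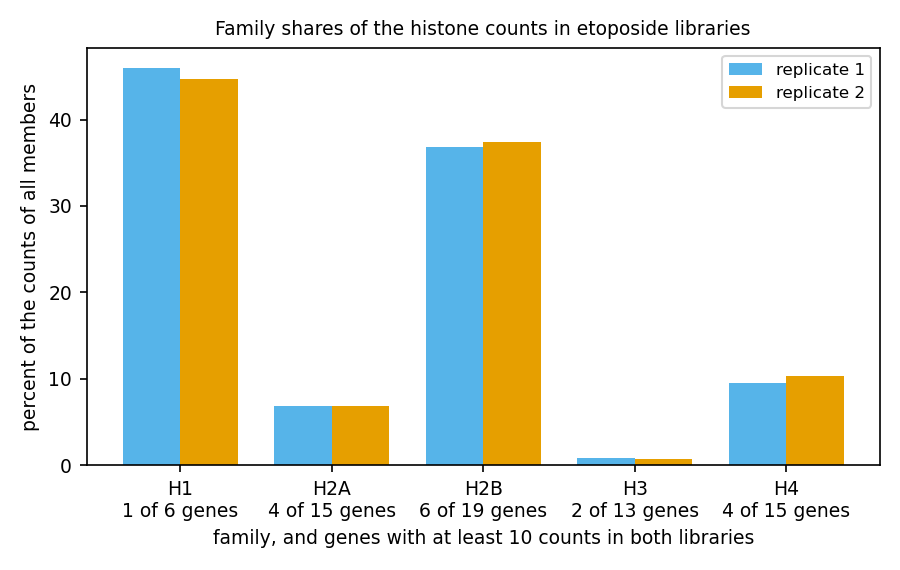
Percent of all member counts held by each of the 5 families in the etoposide libraries, with 1 bar for each replicate and the number of genes with at least 10 counts in both libraries under each name. H1 and H2B hold most of the counts in both libraries, and H3 holds under 1%.

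Histone genes lie in clusters, and within them a few positions held the reads. On chromosome 6 a first block of 34 genes (chr6:25723397-26285638) held 55.7% and 54.9% of member counts, and a second block of 21 genes (chr6:27125897-27893891) held 40.1% and 41.2%. In the first block 6 genes passed and 15 had no count, and in the second 7 passed. The first 5 genes of the second block, H2BC11, H2AC11, H4C9, H2BC12 and H2AC12, span 21666 bases (chr6:27125897-27147562), a group chosen after its values were seen. They held 96.7% and 96.9% of that block's counts. The 9 matched genes of a cluster on chromosome 1 (chr1:149782689-149887965) held 3.69% and 3.11%, with 3 that passed, and the 2 genes of another on chromosome 1 (chr1:228434777-228463104) had 3 counts between them.

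**Figure D4:**
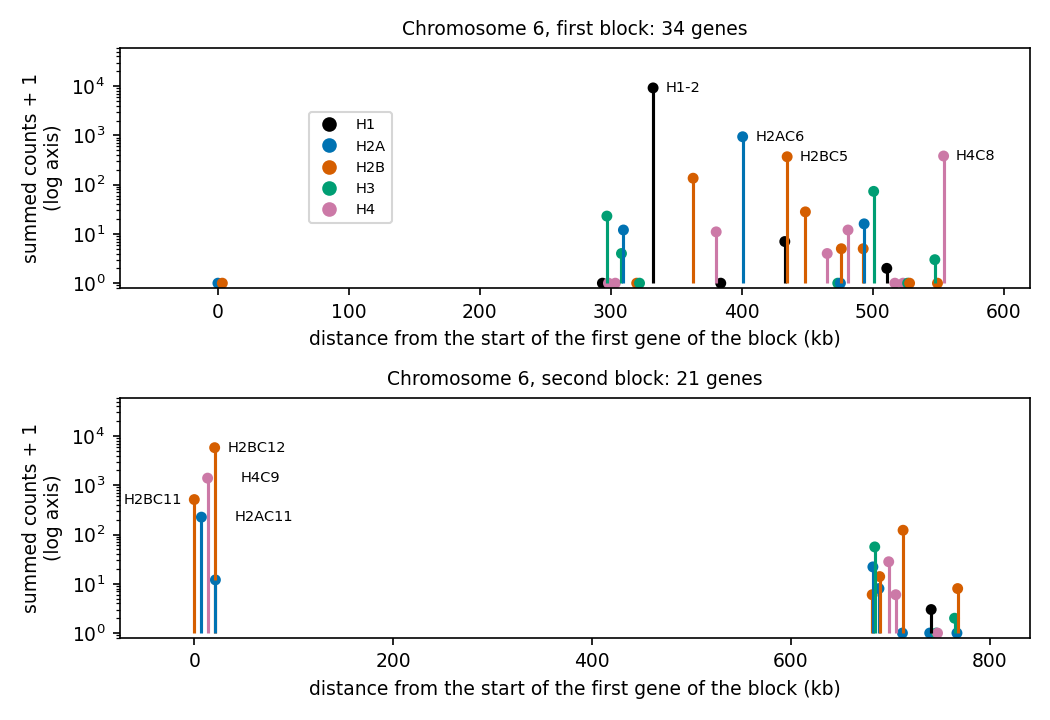
Summed counts of both etoposide libraries plus 1 (log axis) against distance in kb from the first gene of each of the 2 blocks on chromosome 6, 1 line per gene, coloured by family, with names for genes over 200 summed counts. H1-2 stands far above its neighbours in the first block, and the tallest lines of the second block lie in its first 5 genes.

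Promoter letters differed by family. RefSeq promoters (GRCh38.p14, 250 bases before to 50 after the start) were found for 64 of the 70 members. The octamer ATTTGCAT, on either strand, was present in 14 of 18 H2B promoters (77.8%) and 11 of 16 H2A promoters (68.8%), against 2.19% of all 27305 promoters. It was present in 1 of 11 H3 promoters and in 0 of 6 H1 and 0 of 13 H4 promoters. The octamer is the letters bound by POU2F1, also called OCT1. The windows below show the octamer in capitals, with 9 bases on each side, for the highest H2A gene and for 3 of the 4 highest H2B genes. Many H2A and H2B genes lie head to head, so that one stretch can serve both.
H2BC12: cttcaccttATTTGCATgagaggtcc
H2BC11: cttcaccttATTTGCATaagcgattc
H2BC21: ggagccctaATTTGCATaaggtggtt
H2AC6: ggcagagctATGCAAATgaggtatga

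The windows lie at chr6:27146888-27146913 for H2BC12, chr6:27132826-27132851 for H2BC11, chr1:149886712-149886737 for H2BC21 and chr6:26124033-26124058 for H2AC6, and they are written on the strand of the gene. The octamer starts 46, 47, 46 and 130 bases before the RefSeq start of the gene, and in H2AC6 it is in reverse. H2BC12 and H2BC11 share the 17 bases up to the end of the octamer, and the level of H2BC12 was 24.7 and 22.8 times that of H2BC11 in RPKM and 12.9 and 11.9 times per coding length. Among the matched H2B genes 4 of 14 with the octamer and 2 of 4 without it had at least 10 counts in both libraries. TATAAA was present in 67.2% of member promoters and 14% of all promoters. CCAAT was present in every H1, H2A, H2B and H3 promoter found and in 3 of 13 H4 promoters (23.1%), against 39.7% of all.

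Most replication-independent histone genes passed the minimum. The genes were listed by name. Whether all mRNAs of these genes, H2AX among them, have a poly-A tail or are made independently of replication was not measured here. Of the 11 such genes reported here 9 had at least 10 counts in both libraries, against 68.95% of all protein-coding genes. The median over the 11 was 25.2 RPKM. H2AX, the variant phosphorylated at DNA breaks, stood at 297 and 281 RPKM, and H2AZ1 at 271 and 245. H1-10, a linker histone, stood at 180 and 165 RPKM. H1-2 was higher per exon length than H1-10 by 2.06 and 1.97 times, and per coding length by 1.23 and 1.18 times. H1-2 and H2BC12 were above H2AX per exon length, by 1.24 and 1.16 times and by 1.14 and 1.10 times. Per coding length both were below it, at 0.384 and 0.358 times and at 0.401 and 0.390 times its level.

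The H3C and H2AC genes were set beside the highest replication-independent genes of the same kind. H3-3B stood at 115 and 106 RPKM and H3-3A at 67.6 and 63.9, which together was 45.3 and 58.9 times the sum of the H3C genes, and 167 and 190 times per coding length. H2AX stood at 6.86 and 7.50 times, and H2AZ1 at 6.24 and 6.53 times, the sum of the H2AC genes, and per coding length at 10.7 and 11.1 times and 15.5 and 15.4 times. H2AZ2 had a mean of 25.2 RPKM, MACROH2A1 14.7, CENPA, the centromeric H3, 12.1 and MACROH2A2 4.00. H2AJ with 4 and 0 counts and H3-5 with 2 and 0 did not pass.

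**Figure D5:**
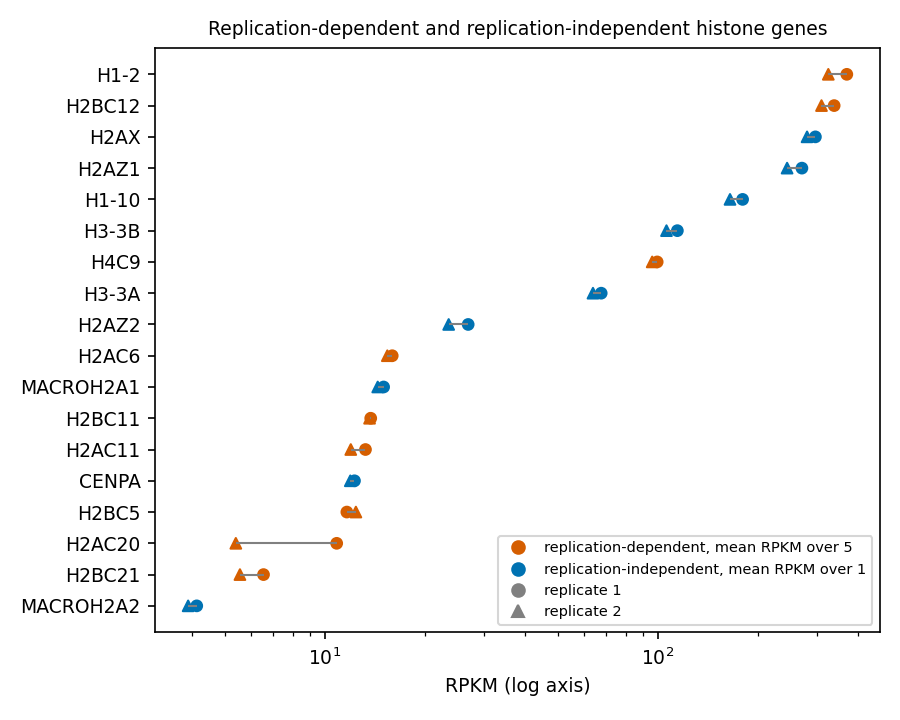
RPKM (log axis) of replication-dependent histone genes with a mean over 5 RPKM (orange) and replication-independent histone genes with a mean over 1 RPKM (blue), with circles for replicate 1 and triangles for replicate 2. H1-2 and H2BC12 lie above H2AX, the highest gene plotted from the list named replication-independent (per coding length they lie below it). H4C9 lies just under 100 RPKM, and the other orange genes lie below 16 RPKM.

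The factors that make and bind histone mRNA were all present in the etoposide libraries. All 13 had at least 10 counts in both, as did 68.95% of all protein-coding genes, with a median of 4.95 RPKM. SLBP, the stem-loop binding protein, was the highest at 49.5 and 42.1 RPKM. CSTF2 and LSM10, parts of the cleavage machinery and of the U7 particle, had means of 34.0 and 26.8 RPKM. SYMPK had 17.96, CPSF3, the endonuclease, 13.4, ERI1, which trims the stem-loop end, 7.26, LSM11 4.95 and CPSF2 3.94 RPKM. NPAT and CASP8AP2, which act at histone gene loci, had 4.22 and 4.30 RPKM, and ZNF473, POU2F1 and HINFP had 2.13, 1.92 and 1.40. By comparison, 23 of the histone genes (33.8%) had no count in either library, against 11.6% of protein-coding genes.

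Histone chaperones carry new histones to DNA, and all 9 passed, as did 68.95% of all protein-coding genes, with a median of 14.99 RPKM. ASF1B and NASP, which handle H3 and H4, had means of 39.0 and 38.6 RPKM. DAXX, a chaperone of the H3-3A and H3-3B product, had 31.0, the acetyltransferase HAT1 16.8 and CHAF1A, a subunit of the replication-coupled assembly factor, 14.99 RPKM. ASF1A had 5.45, HIRA 4.91 and CHAF1B 4.75 RPKM. IPO4, an importin for H3 and H4, was the lowest with 16 and 17 counts.

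The 2 libraries were also compared with each other, which tests the libraries and not the drug. Of the 17 members with enough counts, 3 differed by more than counting noise in an exact binomial test with Benjamini-Hochberg adjustment, two-sided, over 17207 genes (17.6%), where 18.9% of all tested genes did so. All 3 were higher in replicate 1. H1-2 had an adjusted p of 1.1e-07, H2AC20 of 0.00157 and H2BC12 of 0.0104 by this exact test. Among these 17 members H2AC20 was the only one over 2-fold apart, at 2.01 times in CPM, as were 402 genes (2.34%) of all those tested. The 28 members between the minimum and 0 had 158 counts in replicate 1 and 70 in replicate 2, so that 69.3% lay in replicate 1 (95% exact interval 62.9 to 75.2), against 60.1% of all counts and 60.2% over 3841 other protein-coding genes as low. H2BC6, with 24 and 3 counts, was the most uneven, and without it the share was 66.7%. The interval covers counting error only, includes H2BC6 and was not computed without it. It pools genes that were sorted by these same counts. H2BC6, H4C11 (19 and 8), H3C1 (17 and 5) and H2BC14 (10 and 3) reached 10 counts in replicate 1 only. The share therefore does not test a difference between the libraries.

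Histone genes resemble each other, so some reads cannot be placed. Over 50% of the 150-base windows of the transcript were shared with another gene in 12 matched members, and 2 of these, H4C14 and H2AC13, had at least 10 counts in both libraries, while 5 had no count. How the counting treated reads with several matches is not given in the sources used here, and the levels of these genes are uncertain. Of the 49 members with no shared window, 13 passed and 18 had no count, so a zero was seen in members of unique sequence as well. H2AC6, H2BC4 and H4C8 were the 3 that passed among 11 matched members that overlap an exon of another gene. Without all 11 the members held a mean of 0.0519% of counts.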

How the data were processed

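The authors extracted RNA with Trizol, selected mRNA on poly-T beads, aligned reads to GRCh38 with HISAT2 2.1.0 and counted them per Ensembl gene with featureCounts of Subread 2.0.0. They deposited raw counts per gene and library, with no normalization. The Ensembl release and the strand setting are not given in the sources used here. Identifiers were matched to GENCODE release 44, which gave symbols for 60357 genes.

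RPKM and CPM were computed from the deposited counts with the library totals. The minimum was 10 counts in both libraries. The etoposide libraries were compared by a two-sided exact binomial test given their totals, with Benjamini-Hochberg adjustment, called at an adjusted p under 0.05 and tested on simulated data. The control and adriamycin libraries were analysed over their first 220 to 292 genes, which include no member, so the planned group comparison was not made. Members named with values are all H1 genes, the 4 highest of each other family by mean RPKM, members outside the chromosome 6 and 1 clusters, members over 2-fold apart and all genes of the lists except 1 that is not reported here. Members and lists were chosen with earlier results of these data known. Alternatives were other count minimums and scalings (edgeR 4.0.16, DESeq2 1.42.0), coding length, overlapping genes and each library left out. Tables were made with Python 3.11.15, pandas 2.3.3 and scipy 1.17.1, and R 4.3.3.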

Additional observations from a re-analysis of the deposited data

How the results depend on the processing

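Under the alternatives, 20 values stayed within the spread between libraries or within 1.5 times the count, 19 moved and 5 reversed. For the mean shares and the median RPKM, a value with 1 library left out always stays within that spread. Those values could not count as moved, so they say nothing on stability. The number of members with at least 10 counts in both libraries, 17, was 34 with at least 1 count, 11 with at least 50 counts and 17 to 21 with 1 library left out. The mean share of all counts, 0.0560%, was 0.0519% without members that overlap another gene, 0.0146% without H1-2 and H2BC12 and 0.0532% to 0.0588% in single libraries. The share of member counts in genes annotated past the stem-loop, 15.9%, was 9.22% without overlapping members, 6.75% in RPKM, 33.6% with RefSeq spans, 61.1% without H1-2 and H2BC12 and 15.4% to 16.4% in single libraries. The H2B share, 37.1%, was 39.2% without overlapping members, 41.9% in RPKM, 32.4% without H1-2 and H2BC12 and 36.8% to 37.4% in single libraries. The median RPKM of 0.188 was 5.97 over the members that passed the minimum and 0.0569 to 0.318 in single libraries. Per coding length in place of exon length, 5 mean ratios crossed 1: H1-2 over H2BC12 went from 1.07 to 0.938, H2BC11 over H2BC21 from 2.28 to 0.966, H3C10 over H3C6 from 1.63 to 0.759, H1-2 over H2AX from 1.20 to 0.371 and H2BC12 over H2AX from 1.12 to 0.396. The alternatives without H1-2 and H2BC12, with RefSeq spans and with ratios per coding length were chosen after seeing the data. The 3 members apart between libraries were 3 with TMM or DESeq2 factors and with an unadjusted p, and 4 with no filter, when H2BC6 was added. No paired analysis was possible because the members were analysed in etoposide libraries only. The levels of the 51 members under the minimum are not resolved here. The parts of depth, poly-T selection and reads that cannot be placed in these low counts were not tested.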

Other observations

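Of the 13 histone pseudogenes of these series, left out by the choice of symbols, 10 had no count in either etoposide library. H2BC20P had 93 and 57 counts and H2BC19P had 46 and 48, the only pseudogenes of the list with at least 10 counts in both libraries.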
